A study of Homo sapiens with 6 samples.

Results

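Accessible sites that lie inside protein-coding exons, away from promoters, made up 993 of the 96271 merged consensus regions (1.03%) in HLF cells. They were found by merging the consensus peak sets of the DMSO and SNDX-5613 groups wherever they overlapped by at least 1 bp. A merged region was kept when its centre lay in a coding exon of the GENCODE annotation (hg38) and more than 2 kb from every transcription start site (TSS) of a protein-coding or lncRNA gene. Of 3405 merged regions centred in coding sequence, 2412 lay within 2 kb of a TSS and were left out. The 3 coding sites nearest the limit lay in PEF1, OTOF and FAM170B, at 2011, 2013 and 2021 bp, and the nearest regions left out, in BPIFB4, NBPF26 and GAL3ST2, lay at 1990, 1989 and 1985 bp.

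HLF is an established human liver cancer cell line. The 3 SNDX-5613 libraries came from cells given 5 µM of this inhibitor, which blocks the binding of menin to MLL1, and the 3 DMSO libraries from cells given the solvent. The labels state 24 h and place all 6 libraries in batch 1. The methods of the study give this assay more time under the drug, and how long the cells were treated is thus uncertain. The methods describe a replicate as a dish of cells divided between the arms, which would make the 6 libraries 3 pairs. The tests below took the libraries as separate, so p-values measure the spread between libraries of 1 cell line. Over 3 pairs an exact sign-flip p could not go below 0.25. A promoter peak was seen in all 6 libraries for all 4 mesenchymal markers tested, VIM, ZEB1, CDH2 and FN1. Of the 3 epithelial markers, EPCAM and KRT18 also had one in all 6 libraries and CDH1 had none in any. Of 4 hepatocyte markers given here, ALB, HNF4A and APOA1 had none in any library and TTR had one in 5 libraries, so most of these hepatocyte markers lacked a promoter peak.

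As background, ATAC-seq marks DNA that the Tn5 transposase can reach, which is mostly DNA freed of nucleosomes. Promoters and enhancers hold most such sites. Exons carry codons, and some also hold binding sites of transcription factors or CTCF, a zinc finger protein that anchors chromatin loops. An open site in an exon can belong to an enhancer, to an alternative promoter that the annotation lacks or to an insulator, and the position alone does not tell these apart.

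The sequences below are a selection from the windows of named sites that lie wholly in coding sequence, 75 bases to each side of the strongest summit. Other such windows, with and without a motif match, are left out, so the share with a match cannot be read from this selection. The sequences shown represent genes with most sites, the 10 strongest sites (HMGXB3) and the sites that ranked or were called differently between groups. Each is given on the plus strand of hg38, and capitals mark the letters of any motif searched.
SPTBN4 coding exon 10, chr19:40502779-40502929: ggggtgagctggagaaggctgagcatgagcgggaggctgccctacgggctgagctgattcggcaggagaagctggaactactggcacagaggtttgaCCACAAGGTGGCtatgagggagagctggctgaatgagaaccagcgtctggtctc
DST coding exon 61, chr6:56552942-56553092: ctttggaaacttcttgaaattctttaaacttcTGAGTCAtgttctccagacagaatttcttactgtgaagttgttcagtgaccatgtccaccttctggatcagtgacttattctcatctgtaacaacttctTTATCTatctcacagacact
CD163L1 coding exon 3, chr12:7433395-7433545: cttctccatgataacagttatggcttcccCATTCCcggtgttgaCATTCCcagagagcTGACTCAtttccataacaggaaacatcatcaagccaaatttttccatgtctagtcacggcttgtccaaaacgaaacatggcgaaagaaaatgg
HMGXB3 coding exon 11, chr5:150036642-150036792: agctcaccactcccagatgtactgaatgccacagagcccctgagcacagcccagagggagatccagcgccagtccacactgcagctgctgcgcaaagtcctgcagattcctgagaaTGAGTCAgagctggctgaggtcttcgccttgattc
EPB41L2 coding exon 6, chr6:130901021-130901171: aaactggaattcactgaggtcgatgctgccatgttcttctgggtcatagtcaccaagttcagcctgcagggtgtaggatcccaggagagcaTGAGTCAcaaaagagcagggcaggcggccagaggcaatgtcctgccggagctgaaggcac
PLEKHG4 coding exon 12, chr16:67285031-67285181: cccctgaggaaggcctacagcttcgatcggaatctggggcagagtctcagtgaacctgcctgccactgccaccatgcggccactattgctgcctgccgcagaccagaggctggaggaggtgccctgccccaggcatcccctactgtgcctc
ANKRD30B coding exon 42, chr18:14851671-14851821: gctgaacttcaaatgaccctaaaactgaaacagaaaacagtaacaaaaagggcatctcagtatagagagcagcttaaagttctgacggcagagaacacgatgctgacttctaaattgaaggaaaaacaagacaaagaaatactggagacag
ZNF143 coding exon 13, chr11:9516208-9516358: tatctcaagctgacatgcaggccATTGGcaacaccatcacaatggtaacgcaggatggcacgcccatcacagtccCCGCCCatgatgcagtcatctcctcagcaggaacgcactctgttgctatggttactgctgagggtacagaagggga
The SPTBN4 exon 10 window holds a CTCF match, the DST window an AP-1 and a GATA match, and the CD163L1 window an AP-1 match and a pair of TEAD matches. Those of HMGXB3 and EPB41L2 each hold an AP-1 match, and that of ZNF143 an NF-Y and an SP match. None of the 6 motifs was found in the windows of PLEKHG4 and ANKRD30B. The GC content ran from 37.1% in DST to 64.2% in PLEKHG4.

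Depth bears on every count that follows. Libraries held 88026 to 113675 regions, apart from SNDX-5613 replicate 3 with 40568, and the genome-wide background pileup of that library was 16.2% of the median of the other 5. For a coding site without a peak in that library, a closed site and one missed at its depth cannot be told apart.

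Coding exons held more accessible regions per base than introns. Counted in the merged set, coding sequence more than 2 kb from a TSS (18.7 Mb, 53.2% of all coding bases) held 53.0 regions per Mb. Introns held 26.2, intergenic sequence 20.7 and exons outside coding sequence 38.9 regions per Mb. In each library's own peak list the coding density was 45.8, 65.9 and 52.7 regions per Mb for DMSO. For SNDX-5613 it was 59.7, 52.6 and 15.6, with values always in the order of replicates 1 to 3. The corresponding intron densities were 23.6, 32.3 and 26.6 in DMSO and 28.8, 25.3 and 8.18 in SNDX-5613. Coding density was thus above intron density in 6 of 6 libraries, by a mean ratio of 2.00 (log2 1.00 ± 0.05, SD, n = 6, exact two-sided sign-flip permutation p = 0.031, the smallest p that 6 libraries allow, adjusted p = 0.0625 over 4 class comparisons). With DMSO the ratio was 1.99 ± 0.0484 and with SNDX-5613 it was 2.02 ± 0.0943 (SD, n = 3 each), a difference smaller than the spread (exact permutation p = 0.6).

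**Figure D1:**
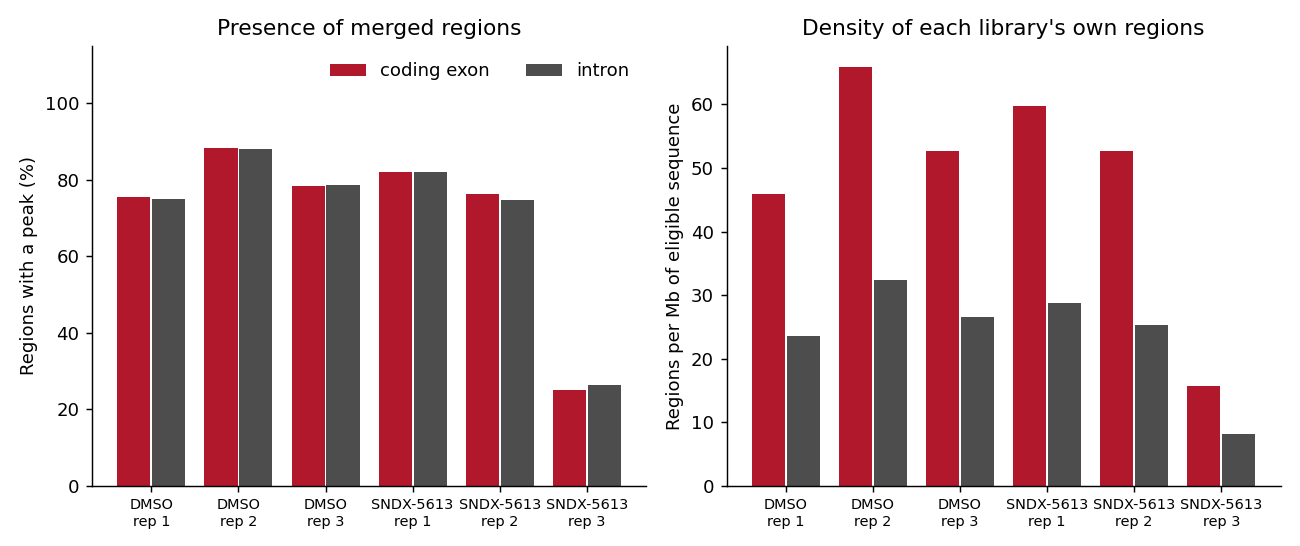
Left, percent of merged regions in coding exons (red) and introns (grey) with a peak in each library. Right, each library's own regions per Mb of coding or intron sequence more than 2 kb from a TSS. Presence is close between the classes in every library, while the coding density is about 2.00 times the intron density, and SNDX-5613 replicate 3 is lowest in both panels.

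This order depended on base composition. Coding sites were richer in GC, with a median of 56.7% in the 201 bases around the strongest summit against 49.3% for intron regions. Their observed-to-expected CpG ratio was 0.351 against 0.205. Accessible regions per Mb rose with GC in both classes, from 8.25 in coding exons and 6.18 in introns under 40% GC to 132 and 172 at 65% GC or more. Coding density was 1.34 times the intron density under 40% GC and 1.19 times at 50 to 55%, but 0.862, 0.641 and 0.767 times from 55 to 60%, from 60 to 65% and at 65% or more. Only 0.522% of intron bases but 7.78% of coding bases fell in the highest of these classes. With introns weighted to the GC mix of coding bases, introns held 59.4 merged regions per Mb against 53.0 in coding exons. Over the libraries' own lists the ratio at equal GC was 0.708 to 0.892 and lay below 1 in 6 of 6 libraries (mean log2 ratio -0.28 ± 0.11, SD, n = 6, exact sign-flip permutation p = 0.031). The higher count per coding base was thus not seen at the GC mix of coding bases. It was seen in each class under 55% GC, with ratios of 1.15 at 40 to 45% and 1.23 at 45 to 50%.

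**Figure D2:**
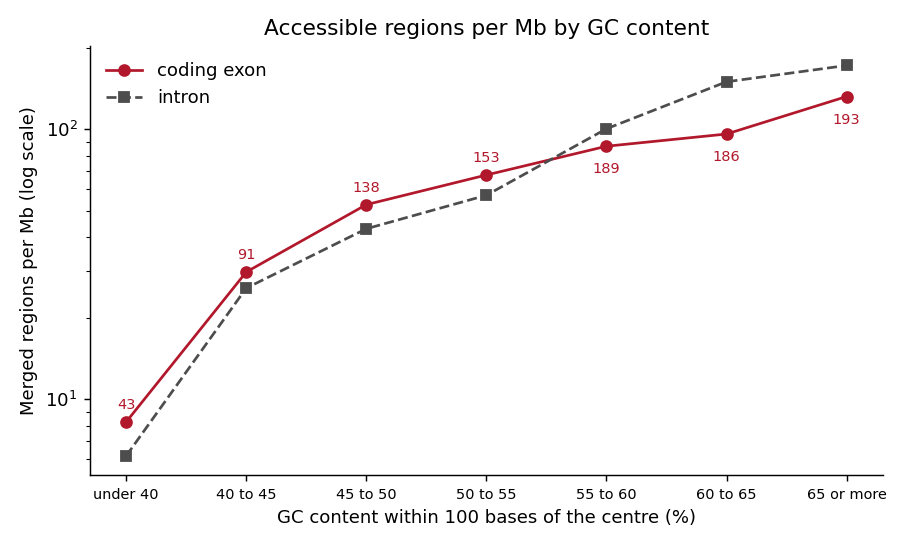
Merged regions per Mb (log scale) in coding exons (red circles, with the number of coding sites) and introns (grey squares) against the GC content of the 201 bases around the centre. Coding exons lie above introns up to the class of 50 to 55% GC and below them from 55% upward.

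Within genes, coding sites followed the coding sequence closely. Of 943 sites that could be placed in a coding exon of the canonical transcript, 70.8% lay in internal coding exons, which hold 72.3% of the coding bases counted. Last coding exons held 23.2% of sites and 20.2% of bases, first coding exons 3.18% and 3.23%, and single coding exons 2.76% and 4.22%. By exon length, density was 46.5 sites per Mb in exons under 150 bp and 61.7, 63.9 and 63.0 per Mb in exons of 150 to 299, 300 to 599 and 600 to 1199 bp. Exons of 1200 bp or more held 31.3 sites per Mb, the lowest of these classes. Members of the C2H2 zinc finger family, whose DNA-binding domain is often coded by 1 long exon, had 27 sites, 2.72% of sites for 4.48% of coding bases.

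**Figure D3:**
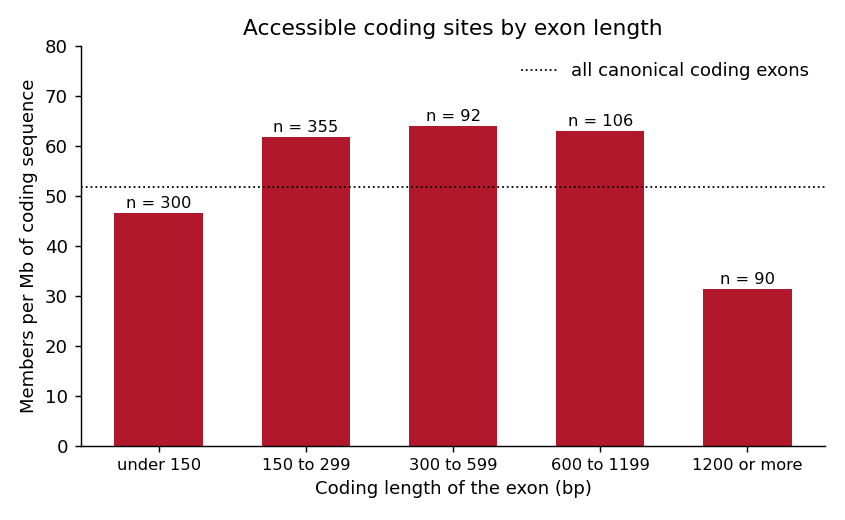
Coding sites per Mb of coding sequence more than 2 kb from a TSS, by coding length of the exon, with the number of sites above each bar and the mean over all canonical exons as a dotted line. Exons of 1200 bp or more have the lowest bar, 31.3 per Mb.

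Most sites were larger than the exon part they sat on. Their median width was 377 bp and the median coding length of the exon was 190 bp. The median site had 57.0% of its bases in coding sequence, 166 sites lay wholly inside it and 391 had less than 50% there. The strongest summit lay in coding sequence in 737 sites (74.2%). The median distance to the nearest TSS was 6974 bp, with quartiles of 3810 and 14531 bp. Another merged region was centred within 10 kb of 649 sites (65.4%), 154 lay within 2 kb of the end of their gene, and 20 lay within 2 kb of the start of a gene of another type. Sites seen in all 6 libraries were wider (median 542 bp) and held less coding sequence (median 42.5% of bases) than those seen in 1 to 4 libraries (309 bp and 67.7%).

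Density also differed between chromosomes. It was highest on chromosome 20, with 45 sites at 94.9 per Mb of coding sequence, followed by chromosome 22 with 28 sites at 79.6 per Mb. Chromosome X had 13 sites at 16.9 per Mb and chromosome 13 had 9 at 21.3 per Mb. Copy number and the GC content of each chromosome's exons were not measured beside these values.

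The 993 sites lay in 925 genes, out of 15760 with coding sequence more than 2 kb from a TSS. A single site was found in 862 genes, 2 sites in 55, 3 sites in 6 and 4 sites in 2. Genes with several sites had more coding sequence to hold them. The median length of coding sequence beyond 2 kb from a TSS was 6000 bp in the 8 genes with 3 or more sites, 1414.5 bp in genes with 1 and 795 bp in genes with none. The 63 genes with 2 or more sites held 136 sites, of which 82 (60.3%) were present in 5 or 6 libraries, against 56.0% of all coding sites. The smallest spacing between sites of a gene had a median of 9030 bp and was under 2 kb in 11 genes.

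SPTBN4, which codes for the beta-IV spectrin of the axonal membrane skeleton, had 4 sites over 5749 bp of such coding sequence. Strength is given here as the percentile of a site's -log10 p within the library's own peak list, where 100 is strongest. The site in exon 20 (chr19:40549094-40549597) stood at 87.1, 90.9 and 86.1 in DMSO and at 91.9, 90.6 and 66.8 in SNDX-5613 replicates 1 to 3. The site in exon 16 (chr19:40523288-40523676) stood at 75.3, 78.5 and 81.4 and at 82.9, 82.7 and 69.9. Both sites overlapped between the groups and were lowest in the shallow library. The site in exon 10, whose window holds the CTCF match shown above, stood at 55.5, 67.4 and 63.2 and at 56.5 and 54.7, with no peak in SNDX-5613 replicate 3. The site in exon 15 stood at 21.7, 42.7 and 27.5 in DMSO and at 48.3, 58.6 and 51.5 in SNDX-5613, so that the groups did not overlap.

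DST, which codes for dystonin, a linker between cytoskeletal filaments, also had 4 sites, over 22773 bp. The strongest, in exon 36 (chr6:56624460-56624753), stood at 72.7, 78.3 and 63.5 in DMSO and at 71.4 and 64.5 in SNDX-5613 replicates 1 and 2. The site in exon 61, whose window is shown above, was weaker, at 24.4, 20.2 and 21.0 in DMSO and 9.4 in SNDX-5613 replicate 1 alone. The other 2 were present in 4 and in 3 libraries, and no DST site had a peak in SNDX-5613 replicate 3. MACF1, a relative of DST that links actin and microtubules, had 3 sites with medians of 68.8, 55.5 and 48.1, each present in the 5 deeper libraries.

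Of the other genes with 3 sites, CACNA1G, the pore subunit of a T-type calcium channel, had its strongest site in its last coding exon, 38 (chr17:50625949-50626554), at 76.6, 83.9 and 66.9 in DMSO and at 85.0, 81.8 and 61.2 in SNDX-5613. These percentiles overlapped between the groups. By the rank among regions with a peak in all 6 libraries, used below, all 3 SNDX-5613 values were above all 3 DMSO values. The mean difference of that rank was 13.4 points. CD163L1, a scavenger receptor of macrophages, had its strongest site in exon 3 (chr12:7433331-7433686), where the pair of TEAD matches and the AP-1 match shown above lie, at 71.3, 84.6 and 88.2 in DMSO and at 75.6, 72.9 and 58.6 in SNDX-5613. Its sites in exons 13 and 8 had medians of 72.001 and 16.6. LAMA2, the laminin chain of muscle basement membrane, had sites in exons 14, 23 and 43 with medians of 72.3, 51.8 and 29.7, all absent from SNDX-5613 replicate 3. PPFIA2, a scaffold of presynaptic terminals, had sites with medians of 56.1, 47.8 and 27.1. By the rank among regions with a peak in all 6 libraries, the first of these was lower in all 3 SNDX-5613 than in all 3 DMSO libraries. The mean difference of that rank was -10.7 points. CCDC187 had sites with medians of 74.3, 45.04 and 17.1. Sites of the same gene thus differed widely in strength, above all in CD163L1 and CCDC187 among these 8 genes.

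The strongest coding sites lay in other genes. PACSIN1, a membrane-shaping protein of neuronal endocytosis, led with 96.6, 97.0 and 96.7 in DMSO and 96.9, 96.2 and 86.0 in SNDX-5613, in exon 2 (chr6:34527129-34527601). It was followed by SSUH2 (median 95.9), MATN4, a matrilin of the extracellular matrix (95.3), C17orf50 (94.5), and HMGXB3, an HMG-box protein (93.0). GIPR, the receptor of an incretin hormone, DEF6, an exchange factor of T cells, EFNA5, an ephrin ligand, NPEPPS, an aminopeptidase, and CAND2 had medians of 92.9, 92.6, 92.1, 91.5 and 91.4. All 10 had a peak in all 6 libraries. By the rank among such regions, used below, HMGXB3 and C17orf50 were higher in all 3 SNDX-5613 than in all 3 DMSO libraries. Their mean differences were 16.4 and 7.79 points. Coding sequence made up 10.7% of the bases in SSUH2 and 66.1% in MATN4, the lowest and highest of the 10, so that most of these regions reached well into introns or other sequence. HMGXB3 was the only site of the 10 that was coding throughout the 75 bases to each side of its strongest summit, and its other site, in exon 18, was present in DMSO replicate 1 only, at 0.48.

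Coding sites held the AP-1 motif in a smaller share than introns and the CTCF motif in a larger one. Motifs were searched on both strands in the 201 bases around the strongest summit, as TGANTCA for AP-1, CCAAT for NF-Y, CATTCC for TEAD, GGGCGG for SP, AGATAA for GATA, and for CTCF as CCA, any 2 bases, AG, any 2 bases, GGC. Overlap between different motifs was allowed. AP-1 was found in 13.8% of coding sites, 24.8% of intron regions and 19.5% of all merged regions. CTCF was found in 14.7%, 10.6% and 10.3%, SP in 15.9%, 7.28% and 18.8%, NF-Y in 19.5%, 24.2% and 25.1%, TEAD in 12.6%, 18.8% and 16.0% and GATA in 4.63%, 8.27% and 6.72%. With introns weighted to the GC of coding sites, the intron share became 19.9% for AP-1, 11.7% for CTCF, 16.7% for SP, 20.4% for NF-Y, 15.7% for TEAD and 5.38% for GATA. The gap thus narrowed for these motifs, and the order changed for SP.

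Coding sites with a CTCF match were stronger than those without one. Each median covers only the sites with a peak in that library. Of the 146 sites with a match, 125, 138 and 127 had a peak in DMSO and 127, 121 and 56 in SNDX-5613 replicates 1 to 3. Their median percentiles were 59.0, 67.2 and 64.1 in DMSO and 68.8, 67.0 and 50.1 in SNDX-5613. Sites without a match had medians of 45.7, 53.5 and 49.3 and of 51.1, 49.8 and 42.4. Sites with the match were higher in 6 of 6 libraries, by a mean of 14.1 ± 3.59 percentile points (SD, n = 6, exact sign-flip permutation p = 0.031, adjusted p = 0.0938 over 6 motifs). Within 5 classes of GC the mean difference was 13.2 points, again in 6 of 6 libraries. The same comparison in introns gave 11.9 points, and the difference between the classes was 2.2 points (6 of 6 libraries, exact permutation p = 0.031, adjusted p = 0.0938). Of the 225 coding sites seen in all 6 libraries, 23.6% had a CTCF match, against 12.1% of the others.

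Sites with CCAAT, the letters bound by NF-Y, ran the other way, again among sites with a peak (43 of 194 in SNDX-5613 replicate 3). Their median percentile was below that of sites without CCAAT in 6 of 6 libraries, by a mean of 5.17 points (SD 2.92, n = 6, exact permutation p = 0.031, adjusted p = 0.0938), while in introns the mean difference was -0.0589 points. The libraries rank the same sites, so this p does not measure the spread between sites. Taking each coding site's median over its libraries, the medians lay closer, at 43.7 with and 46.4 without CCAAT. The difference between the classes was -5.11 points in 6 of 6 libraries (exact permutation p = 0.031, adjusted p = 0.0938), and -5.46 points remained between coding sites with and without CCAAT within classes of GC. For SP, TEAD and AP-1 the mean differences were 6.51, 3.91 and 2.50 points, each positive in 5 of 6 libraries (exact permutation p = 0.0625, 0.0625 and 0.125). Within classes of GC the TEAD difference was 1.04 points, positive in 3 of 6 libraries (exact permutation p = 0.562), and for SP, AP-1 and GATA a class held fewer than 3 sites with the motif in some library, so that no such value was formed. For GATA it was -3.66 points and positive in 2 of 6 (exact permutation p = 0.594), with only 9 sites behind the value in SNDX-5613 replicate 3. No motif passed 0.05 after adjustment, where 6 libraries cannot go below 0.031 for a single motif.

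**Figure D4:**
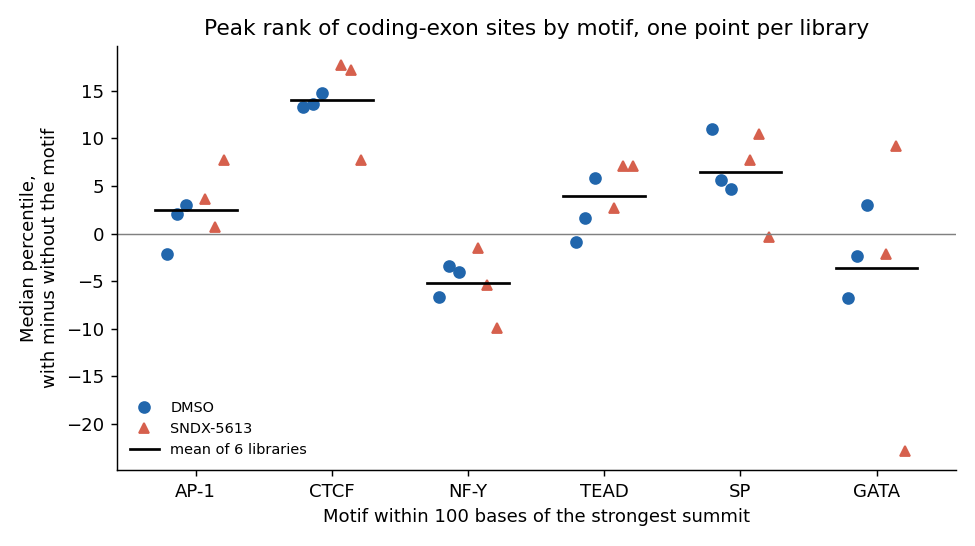
Median percentile of coding sites with each motif minus that of coding sites without it, among sites with a peak in the library. There is 1 point per library (circles DMSO, triangles SNDX-5613), with the mean of the 6 libraries as a bar. All 6 points lie above 0 for CTCF and below 0 for NF-Y.

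Presence was then compared between treatments. Among coding sites, 75.4%, 88.3% and 78.4% had a peak with DMSO, and 82.1%, 76.3% and 25.1% with SNDX-5613. The means were 80.7% ± 6.74 and 61.2% ± 31.4 (SD, n = 3 each, exact two-sided permutation p = 0.5, where the smallest p of 3 against 3 is 0.1). Without SNDX-5613 replicate 3 the difference was -1.53 percentage points (exact permutation p = 0.9). Intron regions gave 74.8%, 88.0% and 78.7% in DMSO and 82.1%, 74.6% and 26.4% in SNDX-5613. Presence thus differed far more between libraries than between the classes. Coding minus intron presence had a mean of 0.157 percentage points and was positive in 3 of 6 libraries (exact sign-flip permutation p = 0.656), and its change with treatment was -0.107 points (exact permutation p = 1.0).

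By number of libraries, 225 coding sites had a peak in all 6, 331 in 5, 139 in 4, 138 in 3, 101 in 2 and 50 in 1. The pattern of all libraries but SNDX-5613 replicate 3 alone held 319 sites (32.1%, against 27.3% of all merged regions). A further 9 sites had no peak in any of the 6 lists although a consensus set held them, in ELOA, CAP1, CD58, AMER3, TTC33, MFHAS1, DIPK1B, ODF3 and C2CD3. Both consensus sets held 764 of the 993 sites, the DMSO set alone 118 and the SNDX-5613 set alone 111. Coding sites made up 0.976%, 1.09% and 1.02% of the DMSO libraries' own regions and 1.04%, 1.02% and 0.722% of those of SNDX-5613 (exact permutation p = 0.5), and the difference was 0.00084 percentage points without SNDX-5613 replicate 3.

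Rank was taken as the percentile of -log10 p among the 33213 merged regions with a peak in all 6 libraries, which set aside differences in the number of peaks. The median rank of the 225 coding sites was 36.7, 35.8 and 35.4 in DMSO and 34.7, 35.4 and 37.6 in SNDX-5613. The group means of 36.0 ± 0.634 and 35.9 ± 1.53 differed by less than their spread (SD, n = 3 each, exact permutation p = 0.9). Among coding sites, ranks correlated across sites with Spearman coefficients of 0.840 to 0.917 between the 5 deeper libraries and 0.731 to 0.758 with SNDX-5613 replicate 3, where the 225 sites are not independent replicates.

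Coding sites ranked slightly above introns before GC was considered. Their median rank was above that of introns by 1.11 to 3.53 points in 6 of 6 libraries (mean 2.23 ± 0.913, SD, n = 6, exact sign-flip permutation p = 0.031, adjusted p = 0.0625). Compared within 5 classes of GC, coding sites ranked below introns in 6 of 6 libraries, by a mean of 2.60 points on the other side (mean difference -2.60, exact sign-flip permutation p = 0.031). In the class of highest GC the median of mean ranks was 35.6 for coding sites and 47.3 for introns, and in the second lowest class it was 38.4 and 33.5. With equal numbers of regions per library the overall difference was -0.686 points, with a TSS distance of 5 kb it was 0.482 points and without SNDX-5613 replicate 3 it was 0.954 points. The order of the classes by rank thus changed with these choices. Its change with treatment was 0.0314 points (exact permutation p = 1.0).

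Between treatments, the ranks of 22 of the 225 coding sites were higher in all 3 SNDX-5613 than in all 3 DMSO libraries (9.78%, against 8.53% of all regions ranked), and those of 18 were lower (8.0%, against 8.05%). Without SNDX-5613 replicate 3, 72 of 544 sites ranked higher (13.2%, against 14.3% of all regions) and 65 lower (11.9%, against 14.4%). By this rank both shares lay near the background, and no preference of coding sites for either direction was seen. The differences of mean rank had a median size of 13.1 points in the higher and 12.3 points in the lower sites. Over all 225 sites it was 5.82 points. The larger size follows from picking sites by separated ranks and is no evidence of change. Ranked by fold enrichment instead, 9 sites were higher (4.0%, against 7.92% of all regions) and 21 lower (9.33%, against 6.82%). The median fold of coding sites with a peak had a mean of 7.92 in DMSO and 6.89 in SNDX-5613 (n = 3 each, exact permutation p = 0.1). Without SNDX-5613 replicate 3 the SNDX-5613 mean was 7.37.

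ADAMTS17, a secreted metalloprotease, showed the largest rise in rank, in the site of exon 12 (chr15:100131639-100132389). Its ranks were 11.2, 14.98 and 14.1 in DMSO and 48.0, 39.4 and 32.7 in SNDX-5613, a difference of means of 26.6 points. VSTM1, an immunoglobulin-domain receptor of leukocytes, went from 39.8, 25.2 and 39.8 to 60.2, 63.2 and 55.8 in exon 6 (chr19:54041598-54042740). In both genes the groups were well apart by this rank, and less than 20% of the site lay in coding sequence, 19.4% and 17.2%. By percentile within each library's own list the groups overlapped in both. There SNDX-5613 replicate 3 stood at 43.0 in ADAMTS17 and 63.1 in VSTM1, below all 3 DMSO libraries. The SPTBN4 site of exon 15 went from 1.8, 3.3 and 1.3 to 5.0, 13.1 and 42.4, and SNDX-5613 replicate 3 supplied most of its difference of 18.0 points. ZNF704, a zinc finger protein, and KATNIP, a protein of cilia that interacts with katanin, ranked higher by 16.6 and 16.5 points.

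EPB41L2, a protein 4.1 of the membrane skeleton, showed the largest fall, in exon 6 (chr6:130900915-130901362), whose AP-1 match is shown above. Its ranks were 44.5, 54.7 and 43.7 in DMSO and 28.5, 16.8 and 31.6 in SNDX-5613, a difference of -22.003 points. PLEKHG4 had ranks of 68.0, 66.9 and 67.0 in DMSO and 61.0, 57.5 and 24.2 in SNDX-5613, so that the shallow library again supplied most of the -19.7 points. ZNF552, MAGI1, a scaffold of cell junctions, and SUSD6 ranked lower by mean differences of -16.6, -15.5 and -13.6 points. Without SNDX-5613 replicate 3 the differences became 6.88 points for SPTBN4, -8.06 for PLEKHG4 and -9.45 for ZNF552, while those of the other 7 named sites moved by less than 1.5 times. For a single site an exact permutation of 3 against 3 libraries cannot go below 0.1, and no other test per site was run.

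**Figure D5:**
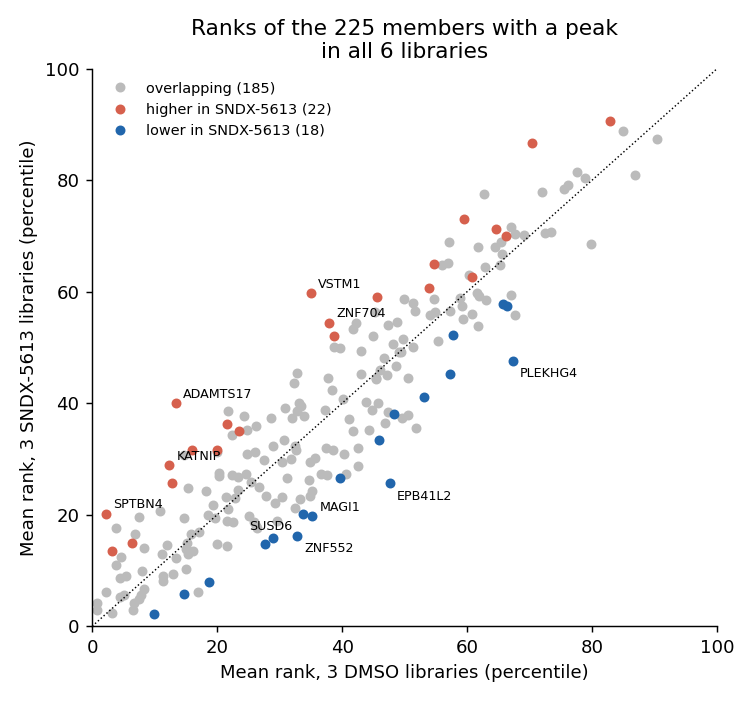
Mean rank in the 3 DMSO libraries (x axis) against the 3 SNDX-5613 libraries (y axis), in percentiles, for the 225 coding sites found in each of the 6 libraries. The 22 sites that ranked higher in all SNDX-5613 libraries are red and the 18 that ranked lower are blue, on both sides of the dotted line of equal rank, with the 10 largest differences named.

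A single coding site was gained and 19 were lost, where gained means a peak in all 3 SNDX-5613 and in no DMSO library and lost the reverse. These are 0.101% and 1.91% of the 993 sites, against 0.212% and 1.77% of all merged regions. Without SNDX-5613 replicate 3 they were 19 each (1.91%), against 2.27% gained and 1.81% lost among all regions, so the imbalance went with the shallow library. The gained site lay in the last coding exon of IGF2, an imprinted growth factor gene active in fetal tissues (chr11:2132823-2133214), at percentiles of 40.2, 29.0 and 0.1 in SNDX-5613. It was weak, with fold enrichments of 4.77, 3.71 and 3.26 over background.

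The lost sites were of low to middle strength, with medians of 8.32 to 55.3 over the DMSO libraries. Ordered by the lowest percentile of the 3 DMSO libraries, ZKSCAN5, a zinc finger gene, came first in exon 5 (chr7:99525810-99525964) with 50.3, 65.6 and 46.4 in DMSO. It was followed by KANSL3, a subunit of the NSL acetyltransferase complex (52.5, 40.4 and 50.7), SNX20, a sorting nexin (57.2, 55.3 and 39.9), ANKRD30B (42.4, 43.4 and 38.8) and ZNF143, a transcription factor of promoters and chromatin loops (36.0, 49.2 and 35.0). ANKRD30B has close relatives in the genome and ZKSCAN5 belongs to a large family, and whether reads were placed among copies was not tested. FGA and FGB, neighbouring genes of the fibrinogen made by hepatocytes, each had a lost site, which were picked out after their values were seen. The FGB site (chr4:154570316-154570573) stood at 17.3, 30.9 and 17.4 and the FGA site (chr4:154586236-154586783) at 13.4, 26.7 and 23.8 in the DMSO libraries.

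Among genes that take part in the target of SNDX-5613, KMT2A, which codes for MLL1, was the only one of 13 menin-MLL and COMPASS genes with a coding site. That is 0.101% of sites for 0.120% of coding bases. The KMT2A site lay in exon 11 (chr11:118488430-118488934), at percentiles of 42.4, 69.0 and 69.5 in DMSO and 64.1, 68.1 and 31.1 in SNDX-5613, and the groups overlapped. NFYB, a subunit of NF-Y, had a site in exon 5 (chr12:104121069-104121471) at 69.7, 75.5 and 70.9 and at 70.9, 75.2 and 50.1, also with overlap. None of 6 genes followed by the study, none of a list of 15 receptor tyrosine kinases and none of 53 clustered protocadherin genes had a coding site. These groups hold only 0.0271%, 0.139% and 0.176% of coding bases. The list did not cover the whole receptor family: MERTK and EPHA8, receptor tyrosine kinase genes outside it, each had 1 coding site. Solute carriers had 32 sites (3.22% of sites for 1.91% of coding bases), kinesins and dyneins 12 (1.21% for 1.44%), laminins and integrins 8 (0.806% for 0.488%), homeobox and T-box genes 5 (0.504% for 0.207%), collagens 4 (0.403% for 0.697%) and histone methyltransferases and demethylases 2, in KDM4A and KMT2A. Of the 7 solute carrier sites seen in all 6 libraries 2 ranked higher and 2 lower, and of the 5 C2H2 zinc finger sites 2 ranked higher and 1 lower, where all regions gave 8.53% and 8.05%. Of all 27 zinc finger sites 3 were lost, against 1.77% of all regions. These counts are small and were not tested.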

How the data were processed

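ATAC-seq peaks of 6 HLF libraries were analysed, 3 with DMSO and 3 with 5 µM SNDX-5613, grouped by the labels. The submitters' processing notes name Trim Galore 0.6.7, Bowtie2 2.3.4.1, Picard 2.20.0, SAMtools, deepTools 3.5.4, MACS2 and hg38. Per the study's methods duplicates were marked with Picard. Whether they were dropped before peak calling, and a shift for Tn5, are not given in the sources used here. A missing shift of a few bases bears little on presence, while retained duplicates can raise peak heights. The deposited lists give the authors' fold enrichment ratio, -log10 p and -log10 q per summit, called per library. From the deposited consensus sets, with a combined -log10 p by the authors, only regions were used.

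Summits of 1 region were merged, and chromosomes 1 to 22, X and Y were kept. Presence meant an overlap of 1 bp with a peak of the library. Classes came from GENCODE 44. Background pileup was solved from fold and p. Library values were compared by exact permutation (20 assignments) or, between classes, by exact sign flips (64 assignments), in Python 3.11.15, numpy 2.4.6 and pysam 0.24.0, after tests on simulated data. Densities, motif comparisons and equal-GC values were added after seeing the data. Named were genes with 3 or more sites, the 10 strongest sites, the 5 largest rank differences in each direction, up to 5 gained and 5 lost sites, and sites in listed genes. Sites and lists were chosen with earlier results of these data known. Read counts were not analysed here, and depth as read numbers is unknown. A hepatocyte marker and a sequence are not reported here.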

Additional observations from a re-analysis of the deposited data

How the results depend on the processing

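Of 167 recomputed values, 93 kept their direction and side of the threshold of 0.05, or, for counts, stayed within 1.5 times. Comparisons between treatments cannot go below an exact permutation p = 0.1, so their side of the threshold could not change and only their direction could. With gene starts only as TSS there were 1796 coding sites, with a TSS distance of 5 kb 630, and with at least 50% of the region in coding sequence 619, with 141, 38 and 30 genes of 2 or more sites. The rank difference between treatments, -0.0632 points, became 0.517 with a -log10 q of at least 3, 0.377 with basic transcripts, 0.474 with gene starts only and 2.53 with equal numbers of regions (exact permutation p = 0.1, over all alternatives 0.1 to 1.0), and -0.412 to 0.598 without single replicates. Coding minus intron presence became -4.88 points with 50% in coding sequence (exact permutation p = 0.031), -2.06 at equal GC, -2.12 when peaks had to span 50% of a region and 1.35 with gene starts only (exact permutation p = 0.031), and ran from -0.150 to 0.453 without single replicates.

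Coding minus intron rank became 0.346 with the stricter q, 0.482 with 5 kb, 0.619 with 50% in coding sequence, -0.686 with equal numbers and -2.60 at equal GC, and was 0.954 (without SNDX-5613 replicate 3) to 2.41 without single replicates, where 5 libraries cannot go below an exact p of 0.0625. The log2 density ratio was -0.28 at equal GC and 0.99 to 1.02 without single replicates. The change of the presence difference with treatment became 1.08 with 5 kb, 0.0431 with equal numbers, 0.196 with gene starts only and 2.76 with 50% cover, and -0.902 to 0.606 without single replicates. The change of the rank difference became -1.72 with 5 kb and -0.578 with 50% in coding sequence, and -0.317 to 1.27 without single replicates. The share of coding sites changed by -0.159 to 0.00084 percentage points without single replicates.

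Sites ranking higher numbered 9 with 50% in coding sequence, 48 with gene starts only, 9 when ranked by fold, and 32 to 72 without single replicates. Sites ranking lower numbered 10 with 5 kb, 7 with 50% in coding sequence, 10 with equal numbers, 47 with gene starts only, and 23 to 65 without single replicates. Ranked by fold, 4.0% of coding sites and 7.92% of all regions were higher, and 9.33% and 6.82% were lower. Gained sites numbered 0 with the stricter q, 0 with 5 kb, 3 with equal numbers, and 1 to 19 without single replicates, most without SNDX-5613 replicate 3. Lost sites numbered 9 with 5 kb, 6 with equal numbers, 33 with gene starts only, and 19 to 61 without single replicates, with 33 and 43 without DMSO replicates 1 and 3 and 61 and 41 without SNDX-5613 replicates 1 and 2. The cause was not tested, apart from the smaller number of sites or libraries that some alternatives leave. Equal-GC values were chosen after seeing the data.

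The methods describe dishes divided between the arms, the labels do not say that equal numbers mark 1 dish, and the libraries were not treated as paired. Deviations from the group means of same-numbered libraries correlated across 33213 regions at 0.030, -0.000318 and 0.018. With the replicate block the presence difference of -19.6 points had an exact sign-flip permutation p = 0.5. With 3 pairs the smallest p is 0.25, so no call could change.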
